A study of Mus musculus with 6 samples.

Results

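Collagens are the main structural proteins of the extracellular matrix, and fibroblasts are their chief producers. The genes studied here are the protein-coding genes of the deposited count table whose symbol has the form Col, a type number, the letter a and a chain number, and this rule finds 44 of the 54532 genes in the table. The rule uses symbol and biotype alone. Messenger RNA was compared between cultures of L929, a clonal mouse fibroblast line with the genotype given as WT. In 3 libraries the cells had received TNF-α at 10 ng/ml together with actinomycin D at 1 µg/ml for 12 hours, and 3 Control libraries had the treatment label Control. TNF-α is an inflammatory cytokine, actinomycin D binds DNA and blocks transcription, and no group received either agent alone. The protocol text that describes the treatment also stands on the Control samples, so the groups rest on titles and treatment labels.

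Each collagen molecule consists of several chains wound into a helix, and the chains are made as procollagens in the endoplasmic reticulum. Prolyl and lysyl hydroxylases modify the chains, the chaperone encoded by Serpinh1 binds the folded helix, large transport carriers bring it out, and proteases and lysyl oxidases then finish and cross-link the fibrils. Fibrillar types such as I, III and V form the fibrils of connective tissue, type IV forms the sheets of basement membranes, and type VI forms beaded filaments around cells. TNF-α is known to repress transcription of type I collagen genes in fibroblasts, and actinomycin D halts new transcription generally; mRNA decay was not measured here.

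Library totals ran from 16056207 to 18036322 counts. Among markers of fibroblasts, Vim, Sparc, Pdgfra, Pdgfrb and S100a4 were above 1 CPM (counts scaled to the library) in Control cells, whereas Dcn, Lum and Fap were listed at 0 in all 6 libraries and Thy1 did not exceed 0.158 CPM. These markers split after treatment. Pdgfra (4.95 to 6.976 CPM) and Pdgfrb (38.322 to 40.399 CPM) lay below every Control library. Vim, Sparc and S100a4 lay above every Control library, with S100a4 scattered from 90.508 to 726.831 CPM. Summed markers of epithelium reached at most 0.883 CPM and those of endothelium at most 0.538 CPM in any library. Of 5 macrophage markers Itgam was at 0 and Adgre1 did not exceed 0.041 CPM in any library. The summed level lay between 43.9 and 55.4 CPM in treated and between 3.88 and 4.8 CPM in Control libraries. Cd68 and Lyz2 made up most of it, with Csf1r at up to 1.589 CPM in treated and 0.952 CPM in Control libraries. The part of this level in the collagen values was not tested. The first principal component held 86.8% of the variance, and on it treated replicate 3 lay nearest the Control libraries.

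Of the 44 collagen genes, 23 had enough counts to be tested, 18 had only a few counts, and Col6a6, Col13a1 and Col4a6 had none. Of the tested genes 21 were higher in treated cells, 0 were lower and 2 did not pass, on a scale set by TMM factors (which assume that most genes keep their share of RNA) and at an edgeR adjusted p of 0.05. Among all 13290 tested genes, 74.8% were called, 34.6% higher and 40.2% lower; of the tested collagen genes 91.3% were called higher. The median log2 change was 1.31 for the collagen genes and −0.18 for all tested genes, a distance of 1.48. Treated and Control values did not overlap for 20 of the 23, all with the treated libraries above, where 35.9% of all tested genes were separated in that direction and 42.0% in the other. The scale matters for the direction. By library size alone 10 of the 23 were higher and 2 lower (all genes 17.1% and 59.6%), and with ribosomal protein genes held equal 1 was higher and 17 were lower (all genes 1.81% and 82.4%). A scaling factor shifts all genes alike, so the distance between the medians (1.5 and 1.54 under these scales) is nearly fixed by construction. Higher and lower below refer to the TMM scale unless another is named. RNA per cell was not measured, and fewer cells and less RNA per cell cannot be told apart.

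**Figure D1:**
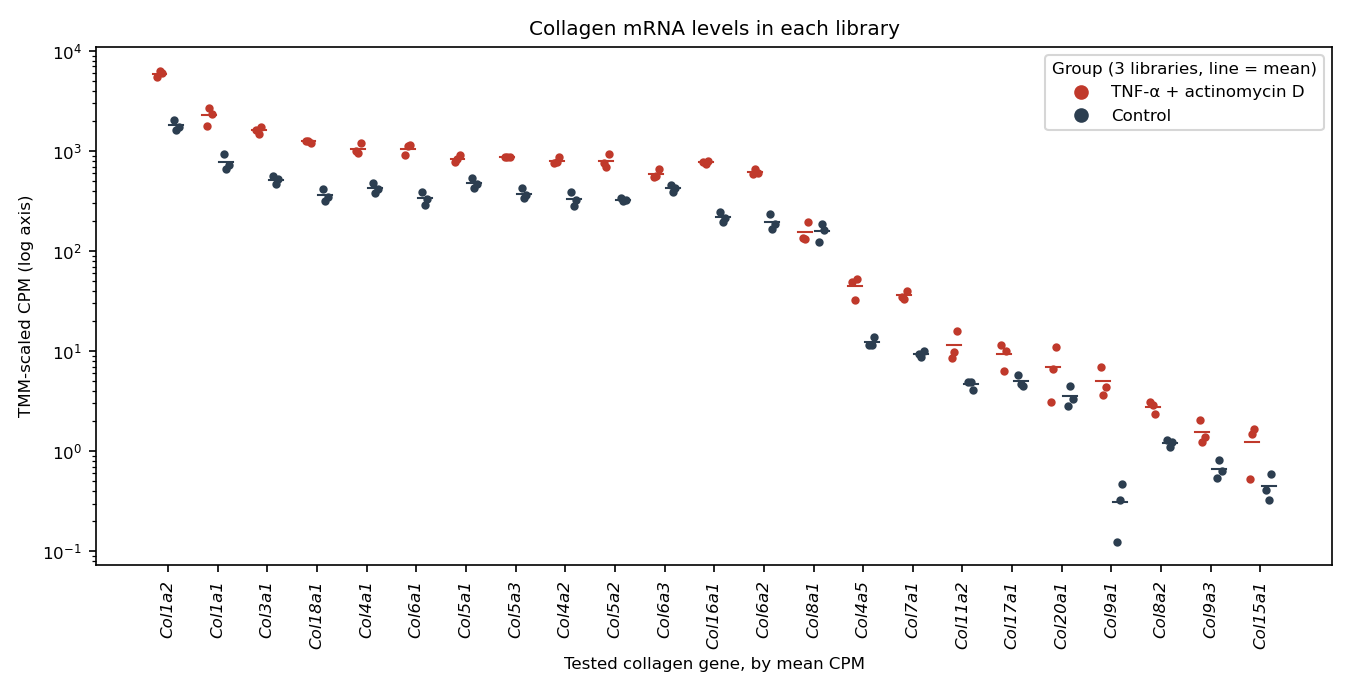
TMM-scaled CPM of the 23 tested collagen genes on a log axis, with treated libraries left of Control libraries for each gene, 1 point per library and a line at the mean. Treated points lie above all Control points for 20 genes, and overlap Control points for Col8a1, Col20a1 and Col15a1.

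As a share of all counts, the 44 genes together took 1.12%, 1.27% and 1.56% in the treated libraries, against 1.02%, 0.925% and 0.957% in the Control libraries. Every treated library was above every Control library, with means of 1.32% ± 0.226 in treated and 0.967% ± 0.0484 in Control libraries (SD, n = 3 each, exact two-sided permutation p = 0.1, the smallest that 3 against 3 allow). The difference of 0.348 percentage points became 0.225 without treated replicate 3. Ribosomal protein genes also differed between the groups, holding 20.5% ± 2.39 of counts in treated and 7.91% ± 0.638 in Control libraries. Within the treated libraries their share ran the other way, at 22.3%, 21.5% and 17.8%, and their part in the collagen share was not tested. With those and the mitochondrially encoded genes taken out of the total, the collagen share was 1.7% ± 0.248 in treated and 1.06% ± 0.0571 in Control libraries (exact permutation p = 0.1).

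Col1a1 and Col1a2 encode the chains of type I collagen, the main fibril-forming collagen of skin, bone and tendon. Col1a2 (chromosome 6, 4504814 to 4541544, plus strand, in the deposited coordinates, GRCm38) had 5515, 6368 and 5958 CPM in the treated libraries, against 2050, 1623 and 1748 CPM in the Control libraries. Every treated library was far above every Control library, and the gene rose by 1.72 ± 0.19 on the log2 scale (SE, edgeR adjusted p = 1.05e-05), or 3.29-fold. Col1a1 (chromosome 11, 94936224 to 94953042, plus strand) had 1797, 2722 and 2352 CPM in treated cells, against 928, 665.8 and 730.6 CPM in Control cells. The groups were apart, with treated replicate 1 lowest of its group, and the log2 change was 1.56 ± 0.21 (edgeR adjusted p = 5.26e-05). Col3a1, for type III collagen, which forms fibrils together with type I, lies on chromosome 1 from 45311538 to 45349706. It had 1618, 1468 and 1737 CPM in treated libraries and 558.6, 465.2 and 520.5 CPM in Control libraries, a log2 change of 1.64 ± 0.17 (edgeR adjusted p = 6.65e-06). By library size alone the log2 changes of Col1a2, Col1a1 and Col3a1 were 0.68, 0.54 and 0.61, all called higher. With ribosomal protein genes held equal they were −0.66, −0.8 and −0.73, all called lower, so the direction depends on the scale. Col1a1, Col1a2 and Col3a1 together made up 52.4% of all collagen counts in treated and 45.8% in Control libraries.

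The chains of type V collagen, a minor fibrillar type that nucleates type I fibrils and limits their width, changed by unequal amounts. Col5a2 had 766.1, 687.6 and 927 CPM in treated cells and 335.5, 315.9 and 325.2 CPM in Control cells, and rose by 1.29 ± 0.17 (edgeR adjusted p = 3.57e-05). Its neighbour on chromosome 1, Col3a1, ends 24.6 kb away and points toward it. Col5a3 was very even after treatment, at 865.2, 877.3 and 881 CPM, against 423.6, 337.5 and 363.5 CPM in Control cells (log2 change 1.22 ± 0.16). The calls of Col5a2 and Col5a3 were lost by library size alone, at 0.26 and 0.19 (edgeR adjusted p = 0.226 and 0.184). Col5a1 had 776, 824.5 and 916.7 CPM in treated libraries and 539.8, 422.8 and 464 CPM in Control libraries. The groups stayed apart but the change was the smallest among the tested fibrillar genes, at 0.82 ± 0.17 (edgeR adjusted p = 9.24e-04). By library size alone Col5a1 had a log2 change of −0.21. Col11a2, for a chain of the cartilage fibril collagen type XI, was low, at 8.565, 9.724 and 15.95 CPM in treated and 4.968, 4.906 and 4.11 CPM in Control libraries (log2 change 1.29 ± 0.28, edgeR adjusted p = 0.00158), and its call was lost by library size alone (0.29, adjusted p = 0.465).

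Type IV collagen of basement membranes was represented among the tested genes by a single divergent gene pair and by 1 gene of another. Col4a1 and Col4a2, which encode the common chains of type IV collagen, lie head to head on chromosome 8, and their deposited coordinates overlap by 22 bases. Col4a1 (11198423 to 11312826, minus strand) had 1012, 962.4 and 1192 CPM in treated cells, against 484.1, 378.6 and 418.3 CPM in Control cells. Col4a2 (11312805 to 11449287, plus strand) had 754, 773.9 and 865.3 CPM in treated cells, against 389, 279.4 and 321.7 CPM in Control cells. The log2 changes were 1.31 ± 0.17 for Col4a1 and 1.27 ± 0.17 for Col4a2 (edgeR adjusted p = 4.25e-05 and 5.27e-05). Both calls were lost by library size alone, at 0.28 for Col4a1 and 0.25 for Col4a2 (adjusted p = 0.156 and 0.182). No source used here says whether counting used strand, so reads in the overlap cannot be assigned with certainty.

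The RefSeq promoter windows of that pair (GRCm38.p6, 250 bases before to 50 after each start) are shown because both genes start from them; capitals mark the 78 bases that the windows share, which read as reverse complements of each other. The windows are chr8:11312777-11313076 on the minus strand and chr8:11312555-11312854 on the plus strand.
Col4a1: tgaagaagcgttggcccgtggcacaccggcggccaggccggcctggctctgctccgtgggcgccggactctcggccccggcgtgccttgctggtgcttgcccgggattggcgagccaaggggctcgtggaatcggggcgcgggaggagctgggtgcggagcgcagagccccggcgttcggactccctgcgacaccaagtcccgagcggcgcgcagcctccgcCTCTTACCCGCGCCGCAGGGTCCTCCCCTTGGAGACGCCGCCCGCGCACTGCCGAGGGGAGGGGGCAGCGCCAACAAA
Col4a2: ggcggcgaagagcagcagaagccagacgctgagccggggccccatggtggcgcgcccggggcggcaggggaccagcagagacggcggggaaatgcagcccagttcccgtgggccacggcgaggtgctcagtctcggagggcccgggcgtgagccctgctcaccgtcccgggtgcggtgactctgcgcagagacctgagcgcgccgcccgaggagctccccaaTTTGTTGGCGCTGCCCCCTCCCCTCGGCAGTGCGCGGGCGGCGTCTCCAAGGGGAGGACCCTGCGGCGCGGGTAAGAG

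A second divergent pair, Col4a5 and Col4a6 on chromosome X, lies 1308 bases apart, and here counts came from a single side. Col4a5, for a chain of the basement membranes of kidney and other organs, had 48.83, 32.44 and 52.52 CPM in treated libraries, against 11.59, 11.65 and 13.71 CPM in Control libraries. Every treated library was far above the Control libraries, a log2 change of 1.86 ± 0.22 (edgeR adjusted p = 1.68e-05), and the call also passed by library size alone. Its partner Col4a6 had 0 counts in all 6 libraries, where 3 counts would stand for 0.0292 CPM over the series. The third pair, Col4a3 and Col4a4 on chromosome 1, lies 71 bases apart and had too few counts for a test. Col4a3 had 0, 1 and 1 counts in the treated libraries and 6, 8 and 6 in the Control libraries, values chosen for mention after they were seen. The promoter windows of Col4a5 and Col4a6 are shown for contrast with the pair on chromosome 8, with capitals for the motif GGGCGG on either strand; they do not overlap and are chrX:141475169-141475468 on the plus strand and chrX:141474027-141474326 on the minus strand.
Col4a5: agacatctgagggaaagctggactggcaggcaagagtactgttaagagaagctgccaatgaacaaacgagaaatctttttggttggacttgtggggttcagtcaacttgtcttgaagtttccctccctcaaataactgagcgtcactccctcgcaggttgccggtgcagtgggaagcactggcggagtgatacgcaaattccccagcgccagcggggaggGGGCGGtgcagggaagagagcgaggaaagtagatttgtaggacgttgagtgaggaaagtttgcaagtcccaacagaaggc
Col4a6: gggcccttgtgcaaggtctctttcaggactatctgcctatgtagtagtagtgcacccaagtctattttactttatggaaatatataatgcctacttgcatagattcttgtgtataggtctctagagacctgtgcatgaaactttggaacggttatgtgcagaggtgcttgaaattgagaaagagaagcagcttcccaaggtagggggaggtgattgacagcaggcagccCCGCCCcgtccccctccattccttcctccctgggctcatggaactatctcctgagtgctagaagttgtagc

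The motif GGGCGG, the core of the GC box, was found at 1 position in the Col4a1 window, 3 in Col4a2, 1 in Col4a5 and 1 in Col4a6. Of the tested collagen genes, 20 have a window in the RefSeq table, and they account for 23 windows because some genes have several. GGGCGG was on either strand of 14 of the 23 windows, where 35.7% of all 32851 windows hold it. All windows include those of genes that were not tested, so these shares are not from a like set. The match in the Col4a1 window lies in the bases shared with Col4a2 and so counts in both windows. The letters CCAAT were in 10 of the 23 windows (37.4% of all windows), and TATAAA in 3, those of Col3a1, Col11a2 and Col17a1 (13.6% of all windows). None of these motifs contains another, and a match describes only these letters.

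Type VI collagen is a beaded filament built from the products of Col6a1, Col6a2 and Col6a3. Col6a1 and Col6a2 stand on the same strand of chromosome 10, 85.2 kb apart, and Col6a3 lies on chromosome 1. Col6a1 had 914.9, 1116 and 1140 CPM in treated libraries, against 391.5, 286.9 and 330.3 CPM in Control libraries. Col6a2 had 595, 660.9 and 603 CPM in treated libraries, against 236, 166.5 and 187.3 CPM in Control libraries. These were 3.14-fold and 3.15-fold changes, with log2 values of 1.65 ± 0.18 and 1.66 ± 0.17 (edgeR adjusted p = 1.07e-05 and 7.49e-06). Col6a3, whose long chain completes the molecule, had 550.2, 564.6 and 666.4 CPM in treated libraries, against 453.8, 391.3 and 424.9 CPM in Control libraries. Its groups did not overlap, but the log2 change was 0.49 ± 0.16 (edgeR adjusted p = 0.015), and the call was lost without Control replicate 2 (adjusted p = 0.072) or Control replicate 3 (adjusted p = 0.0883), and with no filter on low counts (0.33, adjusted p = 0.146). By library size alone Col6a3 was called lower, at −0.54. The family members Col6a4, Col6a5 and Col6a6 had at most 6 counts in any library.

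**Figure D2:**
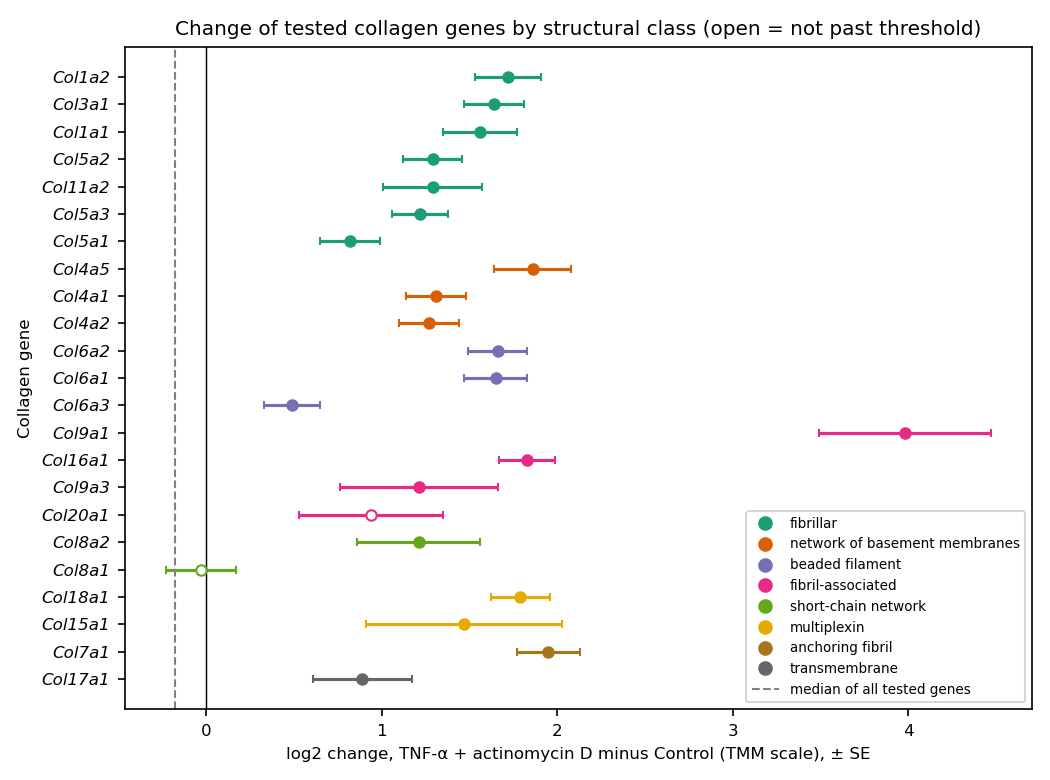
Log2 change with its SE for the 23 tested collagen genes, treated minus Control on the TMM scale, ordered and coloured by structural class; open points did not pass. Col9a1 stands highest at 3.98, Col6a3 and Col8a1 lowest at 0.49 and −0.03, and the dashed line marks the median of all tested genes at −0.18.

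Count ratios between chains within a library need no scaling factor, and 6 pairs were compared, with Benjamini-Hochberg adjustment over the pairs. The log2 ratio of Col6a3 to Col6a1 was −0.73, −0.98 and −0.77 in treated libraries, against 0.21, 0.45 and 0.36 in Control libraries. Col6a3 thus had more raw counts than Col6a1 in each Control library and fewer in each treated library. The difference was −1.17 (exact two-sided permutation p = 0.1, adjusted p = 0.3). In the authors' FPKM, which divides counts by gene length, Col6a1 was above Col6a3 in every library. The FPKM means were 245.2 for Col6a1 and 50.41 for Col6a3 in treated libraries, and 74.03 and 34.13 in Control libraries. For Col5a1 over Col5a2 the log2 ratio was 0.02, 0.26 and −0.02 in treated and 0.69, 0.42 and 0.51 in Control libraries, again without overlap (difference −0.45, exact permutation p = 0.1, adjusted p = 0.3). Since 3 against 3 cannot go below 0.1, neither ratio could pass. Gene length differs within these pairs. Col6a3, with the lower change, is the longer gene (11963 bases against 4380 for Col6a1), whereas Col5a1, with the lower change, is the shorter (8490 against 9591 for Col5a2). Longer genes had lower changes across all tested protein-coding genes (Spearman rho −0.39), while rho was 0.05 among the 23 collagen genes. The part of length in these ratios was not tested. With the length trend removed the log2 changes of Col6a3 and Col6a1 were 1.74 and 2.07, so their difference was −0.33 in place of −1.17. That of Col5a1 and Col5a2 was −0.54, that of Col6a1 and Col6a2, which have 4380 and 8326 bases, was −0.6, that of Col1a1 and Col1a2 −0.6, that of Col3a1 and Col1a1 0.36 and that of Col4a1 and Col4a2 0.14. Without removal of that trend, the other 4 ratios overlapped between groups. Col4a1 over Col4a2 averaged 0.4 ± 0.08 in treated and 0.38 ± 0.06 in Control libraries, and Col6a1 over Col6a2 averaged 0.77 ± 0.15 in treated and 0.78 ± 0.04 in Control libraries (SD, n = 3 each, exact permutation p = 0.8 and 0.9). Col1a1 over Col1a2 averaged −1.39 ± 0.2 in treated and −1.23 ± 0.08 in Control libraries (exact permutation p = 0.3). The ratio of Col3a1 to Col1a1 was −0.15, −0.89 and −0.44 in treated libraries, a wider scatter than the −0.73, −0.52 and −0.49 of Control libraries (exact permutation p = 0.8).

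**Figure D3:**
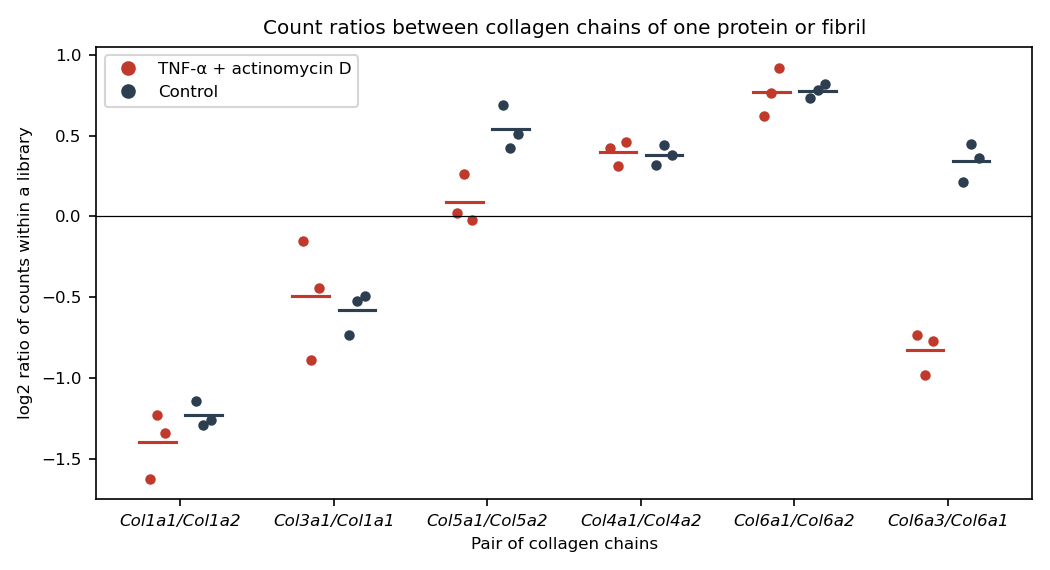
Log2 ratio of counts between 2 collagen genes within each library for 6 pairs, treated libraries left of Control libraries, with a line at the mean. Treated and Control points separate for Col5a1/Col5a2 and Col6a3/Col6a1, where the differences are −0.45 and −1.17, and overlap for the other 4 pairs.

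Single genes of 3 further classes are given next. Col16a1, for a fibril-associated collagen, had 768.5, 746.9 and 800.1 CPM in treated libraries, against 244.6, 193.3 and 214.1 CPM in Control libraries. The treated libraries were close to each other and far from the Control libraries, with a log2 change of 1.83 ± 0.16 (edgeR adjusted p = 2.32e-06). Col18a1, whose product carries the endostatin fragment, had 1253, 1267 and 1216 CPM in treated libraries and 417.9, 317 and 343.8 CPM in Control libraries (log2 change 1.79 ± 0.17, edgeR adjusted p = 4.01e-06). It overlaps Slc19a1 on the other strand, a gene with 13100 counts over the series against 71001 for Col18a1, so part of its counts is uncertain. Col7a1, for the anchoring fibrils that fasten the epidermis to the dermis, had 35.14, 33.5 and 40.38 CPM in treated and 9.398, 8.83 and 10.08 CPM in Control libraries. Its log2 change of 1.95 ± 0.18 (edgeR adjusted p = 3.71e-06) was exceeded among tested collagen genes only by Col9a1. Col16a1, Col18a1 and Col7a1 were also called higher by library size alone.

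Type IX collagen decorates the fibrils of cartilage. Col9a1 (chromosome 1, 24177610 to 24252684) had 79, 41 and 58 raw counts in treated libraries, against 3, 8 and 12 in Control libraries. On the CPM scale this was 6.976, 3.624 and 4.428 in treated and 0.124, 0.327 and 0.474 in Control libraries, a log2 change of 3.98 ± 0.49 (edgeR adjusted p = 2.65e-05), and it was the only tested collagen gene called higher with ribosomal protein genes held equal (1.55). Col9a3 had 2.031, 1.238 and 1.374 CPM in treated and 0.538, 0.818 and 0.632 CPM in Control libraries (log2 change 1.21 ± 0.45, edgeR adjusted p = 0.0295). That call was lost without Control replicate 1, 2 or 3 or treated replicate 1 (adjusted p from 0.0638 to 0.135). It was also lost by library size alone (0.16, edgeR adjusted p = 0.739) and with no filter on low counts (edgeR adjusted p = 0.134). With ribosomal protein genes held equal Col9a3 was called lower, at −1.22 (edgeR adjusted p = 0.0339). Col9a2, which supplies the remaining chain, had 0, 0 and 4 counts in treated and 3, 0 and 2 in Control libraries. Of 5 cartilage markers, Acan was at 0 in all libraries and Col2a1 did not exceed 5 counts in a library. Their summed level ran from 14.5 to 33 CPM in treated and from 14.5 to 16.3 CPM in Control libraries, and its members went opposite ways. Comp had 9.36, 15.47 and 21.07 CPM in treated and 1.905, 1.145 and 2.094 CPM in Control libraries, above every Control library as Col9a1 was. Sox9 had 4.238, 5.304 and 10.84 CPM in treated and 14.201, 13.613 and 12.013 CPM in Control libraries, below every Control library. Their part in the type IX values was not tested.

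The short-chain collagen gene Col8a1, whose product forms hexagonal networks in vessel walls and the cornea, did not pass. Its values were 135.2, 133 and 195.7 CPM in treated libraries and 123.3, 186 and 163.9 CPM in Control libraries. The groups overlapped, with a log2 change of −0.03 ± 0.2 (edgeR adjusted p = 0.903), and by library size alone Col8a1 was called lower, at −1.06 (adjusted p = 0.00954). Its partner chain gene Col8a2 had 3.091, 2.917 and 2.367 CPM in treated and 1.283, 1.104 and 1.225 CPM in Control libraries, and was called higher (log2 change 1.21 ± 0.35, edgeR adjusted p = 0.00861), which no longer passed with library size as the scale (0.16, adjusted p = 0.64). Col17a1, for a transmembrane collagen of the hemidesmosomes of epithelia, had 11.48, 6.276 and 10.08 CPM in treated and 5.838, 4.66 and 4.505 CPM in Control libraries (log2 change 0.89 ± 0.28, edgeR adjusted p = 0.0135). Treated replicate 2 lay just above Control replicate 1, and the call was lost without treated replicate 1 (adjusted p = 0.0513) or Control replicate 2 or 3 (adjusted p = 0.0588 and 0.074). Col15a1, a relative of Col18a1, averaged 1.237 ± 0.619 CPM in treated and 0.445 ± 0.135 CPM in Control libraries (SD, n = 3 each) and overlapped between groups. It was called higher by 1.47 ± 0.56 (edgeR adjusted p = 0.0331), and that call was lost when any library except treated replicate 1 was left out (adjusted p from 0.0687 to 0.137). Col20a1 had 3.091, 6.63 and 10.92 CPM in treated and 2.857, 4.538 and 3.359 CPM in Control libraries, and did not pass (log2 change 0.94 ± 0.41, edgeR adjusted p = 0.0568). It passed with median-ratio or upper-quartile factors, with either other filter, with DESeq2, with protein-coding genes alone and without treated replicate 1 (adjusted p from 0.00998 to 0.0461). It overlaps the transcript 9230112E08Rik on the same strand, which had 1092 counts over the series against 518 for Col20a1, so its values are uncertain.

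The 21 genes that could not be tested had at most 10 counts in any library and at most 36 over the series. They include Col2a1 and Col11a1 of cartilage fibrils, and Col12a1 and Col14a1, which associate with type I fibrils. One of them, Col10a1, for the collagen of hypertrophic cartilage, had 10, 1 and 3 counts in treated libraries and 0 in each Control library, a pattern picked out after the values were seen. Most of its treated counts came from a single library.

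Compared between genes per length, in the authors' FPKM (counts divided by gene length and by a factor for the library), the order of the collagen mRNAs was partly kept. Col1a2 ranked first with 487.2 ± 34.9 FPKM in treated and 140.2 ± 16.7 FPKM in Control libraries (SD, n = 3 each), and Col1a1 next with 354.7 ± 69.6 FPKM in treated and 113.8 ± 19.9 FPKM in Control libraries. Col6a1 came after them in both groups, at 245.2 ± 22.5 FPKM in treated and 74.03 ± 11.4 FPKM in Control libraries. Below these, 6 genes (Col4a1, Col5a1, Col5a3, Col3a1, Col18a1 and Col4a2) lay between 48.08 and 55.16 FPKM in Control libraries, where the SDs of neighbours overlap. After treatment they spread out, with Col18a1 at 180.8 ± 10.4, Col3a1 at 166.6 ± 11, Col4a1 at 143.7 ± 11.5, Col5a3 at 130.8 ± 4.12, Col4a2 at 122.5 ± 4.22 and Col5a1 at 100.4 ± 4.55 FPKM. Col18a1 thus ranked 4 of 44 in treated and 8 in Control libraries, Col16a1 ranked 9 in treated and 12 in Control libraries, Col5a1 10 in treated and 5 in Control libraries, and Col6a3 13 in treated and 10 in Control libraries. These ranks are of group means, and the order of neighbours differed between libraries. In Control libraries Col18a1 was above Col3a1 in replicate 1 (57.32 against 54.8 FPKM) and below it in replicates 2 and 3. Neighbours among these 6 in the Control order did not differ beyond their spread.

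The tested collagen genes share features that the rule did not use. Their longest coding transcripts in GENCODE M21 have a median of 51 exons, from 4 in Col8a1 and Col8a2 to 119 in Col7a1, against a median of 9 in the other 11421 tested protein-coding genes. The collagen median lies at percentile 99.1 of tested protein-coding genes. Their deposited gene length has a median of 6809 bases against 4390 bases, and their GC content a median of 57% against 50.4%. Across all tested protein-coding genes, longer genes had lower log2 changes (Spearman rho across genes −0.39), and genes with longer genomic spans as well (−0.34). Among the 23 collagen genes the corresponding values were 0.05 and −0.12, a description over genes that share the same libraries. Of the 6816 tested genes at least as long as the shortest tested collagen gene (3853 bases), 20.5% were called higher and 54.8% lower, with a median log2 change of −0.83. With the length trend removed, all 23 tested collagen genes were called higher, against 35.4% of all tested genes. Their median then lay 2.2 above that of all genes. Removing the trend raises the values of long genes, and the collagen genes are long, so these larger values follow largely from the construction.

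**Figure D4:**
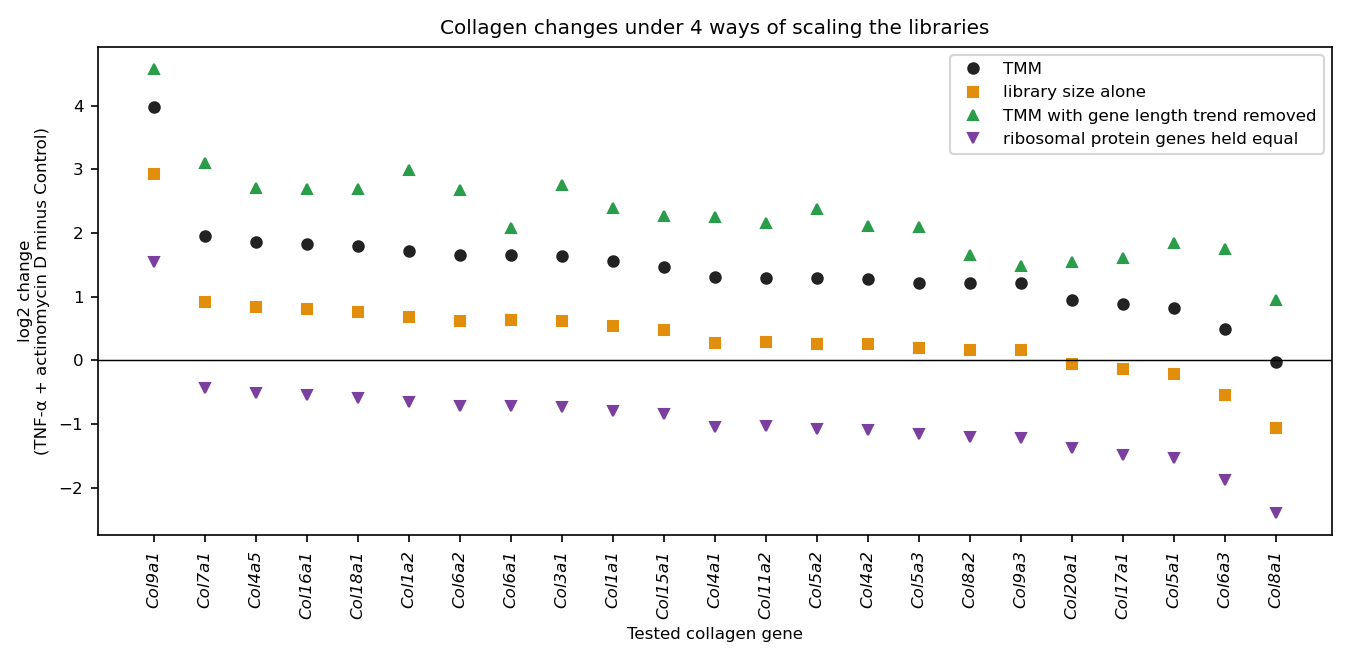
Log2 change of the 23 tested collagen genes, treated minus Control, under TMM factors, library size alone, TMM with the gene length trend removed, and ribosomal protein genes held equal. Scaling factors shift all genes alike: 22 genes are above 0 with TMM, and Col9a1 alone is above 0 with ribosomal protein genes held equal.

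Of all tested genes 34.6% were called higher and 40.2% lower, and the counts of the lists below stand against these shares. The lists were chosen with earlier results of these data known, so their counts are a description only. Among the enzymes and chaperones that modify and fold collagen chains, all 14 tested members of 17 listed rose on the TMM scale, with a median log2 change of 1.92 (2.1 above that of all genes). Serpinh1, the collagen-specific chaperone, averaged 4655 ± 366 CPM in treated and 1356 ± 214 CPM in Control libraries (SD, n = 3 each; log2 change 1.78 ± 0.19). P4hb, protein disulfide isomerase and the shared subunit of prolyl hydroxylase, averaged 4061 ± 326 CPM in treated and 1067 ± 149 CPM in Control libraries (1.93 ± 0.19). The catalytic prolyl hydroxylase subunits P4ha1 and P4ha2 rose by 1.49 ± 0.14 and 1.43 ± 0.18. The lysyl hydroxylase genes Plod1 and Plod2 differed, at 2.02 ± 0.17 and 0.89 ± 0.19, and by library size alone Plod2 had a value of −0.13. The largest rises were those of Ppib, for cyclophilin B, Crtap, its partner in prolyl 3-hydroxylation, and P3h4, at 2.32 ± 0.21, 2.31 ± 0.18 and 2.27 ± 0.18. P4ha2 lost its call by library size alone (0.37, adjusted p = 0.0605). Adjusted p-values from edgeR in this group of named genes ran up to 0.00141.

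Of the procollagen export genes, 3 were higher, 3 lower and 4 did not pass among 10 tested of 11 listed, with a median log2 change of 0.03. The shares of 30% higher and 30% lower are close to those of all tested genes, so the count says nothing particular to export. Sec24d encodes a cargo-binding subunit of the COPII coat of transport vesicles. Its level was 5.386, 6.895 and 8.474 CPM in treated libraries, against 156.7, 133.4 and 146.2 CPM in Control libraries. It fell by 4.39 on the log2 scale (SE 0.2, edgeR adjusted p = 2.27e-07). Tfg, whose product organises COPII carriers at exit sites, changed by −1.99 ± 0.18, and Klhl12, for the ubiquitin ligase adaptor linked to large COPII carriers, by −1.22 ± 0.26; the call of Klhl12 was lost with the length trend removed (adjusted p = 0.993). Sec13, for the outer coat, rose by 1.51 ± 0.17, and the small GTPase genes Sar1a and Sar1b by 0.81 ± 0.14 and 0.68 ± 0.18, with −0.23 and −0.37 by library size alone. Mia3, for the receptor that loads procollagen into carriers, had 55.89, 74.88 and 100.2 CPM in treated libraries and 45.58, 83.23 and 64.88 CPM in Control libraries and did not pass (edgeR adjusted p = 0.384), and is named after its values were seen.

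Of the 10 tested genes for propeptide cleavage and cross-linking (14 listed), 8 rose, 0 fell and 2 did not pass, with a median log2 change of 1.39. Bmp1, the C-propeptide protease, averaged 239 ± 15.7 CPM in treated and 57.9 ± 6.85 CPM in Control libraries (log2 change 2.05 ± 0.15), and its enhancer Pcolce 1966 ± 310 CPM in treated and 352 ± 51.1 CPM in Control libraries (2.48 ± 0.2). Loxl2, a lysyl oxidase family member, rose by 1.75 ± 0.18. Lox itself was too low for a test, with 15, 8 and 6 counts in treated and 3, 2 and 1 in Control libraries.

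Of 5 tested collagen receptor genes (8 listed), 3 rose and 2 fell, with a median log2 change of 0.92; 40% lower is close to the 40.2% of all tested genes. Mrc2, the endocytic collagen receptor, averaged 851 ± 9.81 CPM in treated and 232 ± 26.8 CPM in Control libraries (log2 change 1.87 ± 0.16), and Itgb1, the shared β subunit of collagen-binding integrins, rose by 0.92 ± 0.17, with −0.1 by library size alone. Itga10 rose by 2.24 ± 0.42 at a low level, 2.97 ± 1.02 CPM in treated and 0.623 ± 0.0608 CPM in Control libraries. The collagen-binding receptor kinases fell, Ddr1 with a log2 change of −1.16 ± 0.18 and Ddr2 with −0.78 ± 0.22; Ddr2 overlapped between groups and turned to 0.29 with the length trend removed. Itga1, Itga2 and Itga11 had at most 3 counts in any library.

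All 6 tested genes of collagen degradation and its inhibitors rose, of 11 listed, with a median log2 change of 1.83. Ctsk, for cathepsin K, averaged 250 ± 37 CPM in treated and 41.7 ± 2.58 CPM in Control libraries (2.58 ± 0.16). The membrane metalloproteinase gene Mmp14 rose by 1.66 ± 0.16 and the gelatinase gene Mmp2 by 1.04 ± 0.27. Mmp2 had 0.02 by library size alone and lost its call (adjusted p = 0.955). Its TMM-scaled level was 14.4 ± 2.19 CPM in treated and 6.97 ± 2.32 CPM in Control libraries. The inhibitor genes Timp2 and Timp1 rose by 2.34 ± 0.18 and 1.02 ± 0.19, and Timp1 had −0.03 by library size alone and −0.32 with the length trend removed. Of 6 tested genes for collagen-binding matrix proteins (11 listed), 4 rose, 1 fell and 1 did not pass. Bgn, for the proteoglycan biglycan, averaged 2186 ± 242 CPM in treated and 511 ± 70.5 CPM in Control libraries (2.1 ± 0.19), Fmod, for fibromodulin, rose by 2.3 ± 0.25 and Sparc by 2.53 ± 0.18. Fbn1, for fibrillin, changed by −0.44 ± 0.15 (edgeR adjusted p = 0.0184) and had 0.82 with the length trend removed. Its call was lost with median-ratio factors, upper-quartile factors and protein-coding genes alone (edgeR adjusted p = 0.0686, 0.0778 and 0.0764). It was also lost without Control replicate 3 (edgeR adjusted p = 0.0507). Across these 6 lists and on the scale with ribosomal protein genes held equal, the rises of Pcolce, Ctsk and Sparc were no longer called and those of the other named genes became negative.

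**Figure D5:**
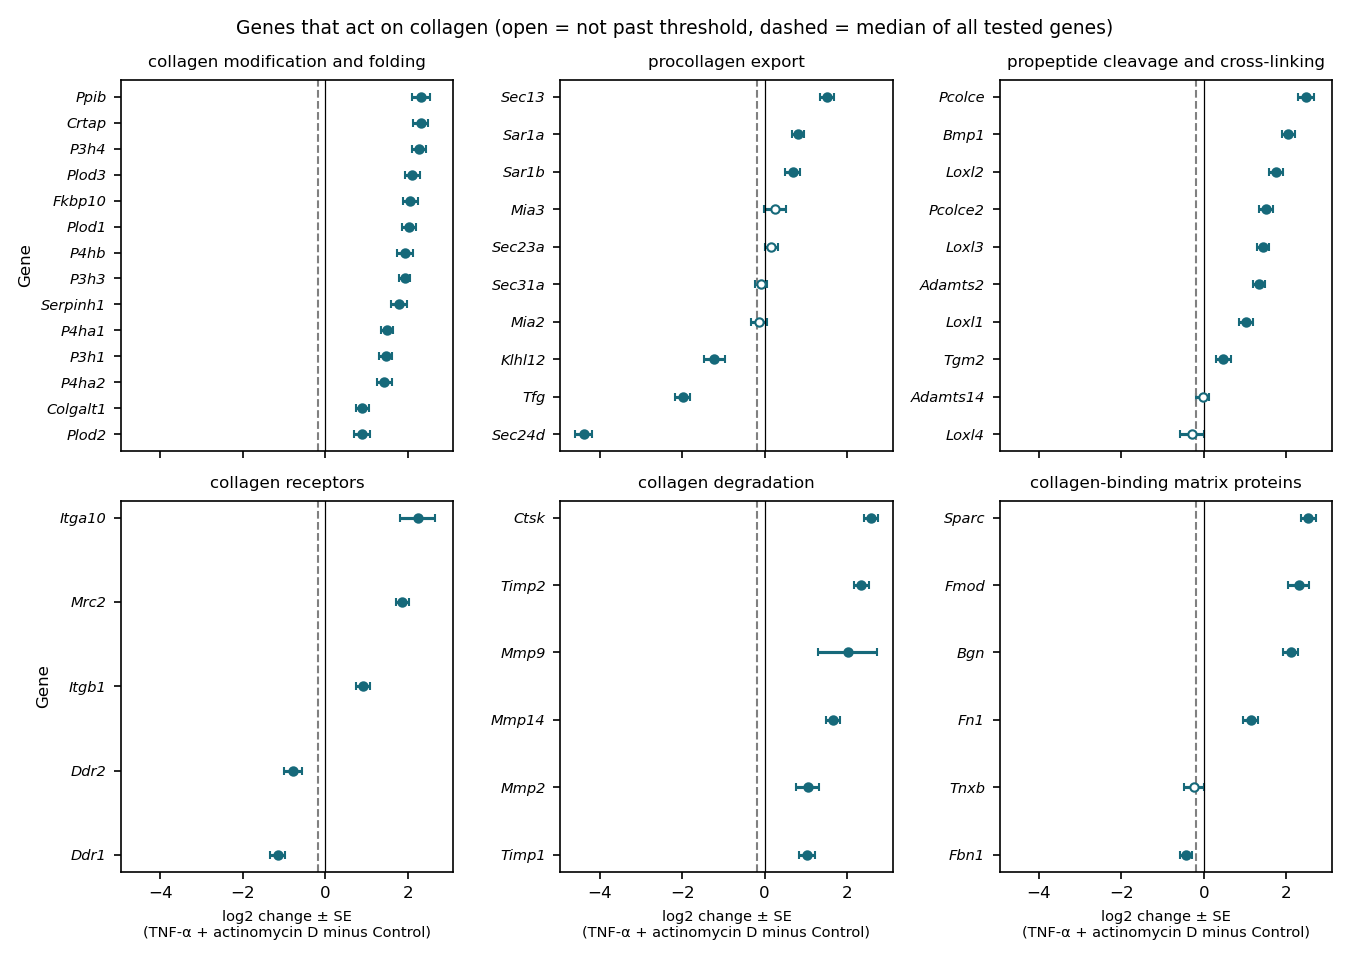
Log2 change with SE for the tested genes of 6 lists that act on collagen, treated minus Control on the TMM scale, with open points for genes that did not pass and a dashed line at the median of all tested genes. All points of modification and folding and of degradation lie above 0, while export ranges from −4.39 for Sec24d to 1.51 for Sec13.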

How the data were processed

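RNA sequencing of 6 L929 samples was used. The deposited table gives whole-number counts per Ensembl gene, with symbols, coordinates and, as the other deposited value, the length of each gene in bases. Per the submitters' processing notes, the tools included DESeq2 1.24.0, RSEM 1.3.1 and HISAT2 2.1.0, with mm10 and GRCm38 as builds and no role stated; strand use and handling of shared reads are not given in the sources used here. The deposited FPKM by the authors is the count per length times 1 constant per library, and relative to scaling by total counts that constant lay between 1.22 and 1.64 for treated libraries and between 0.635 and 0.719 for Control libraries. Columns were matched by treatment name and number; Control columns carry the genotype name WT. The labels do not say whether the libraries of a group are separate cultures; the p-values therefore rest on a spread between libraries that may be technical.

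Genes kept by filterByExpr were tested with edgeR 4.0.16 in R 4.3.3 (TMM, robust quasi-likelihood, Benjamini-Hochberg adjustment over all tested genes, threshold 0.05). CPM is TMM-scaled, and SE is the log2 change divided by the root of F. Exact permutation tests used scipy 1.17.1, and ratios a pseudocount of 0.5. The fits were run on simulated data with 200 changed genes and no length trend. Far more genes were called in the real data, so that run cannot show how the scales behave here. The labels do not say that equal replicate numbers share a culture or day, so they were not taken as pairs. Correlations of deviations were 0.22, −0.137 and 0.029 for equal numbers and ran from −0.377 to 0.383 for unequal numbers. With 3 libraries per group these values cannot exclude pairing. Members and lists were chosen with earlier results of these data known. Collagen genes with a mean of at least 1 CPM are named with each library's value; of each list up to 3 of the largest called rises and falls at a mean level of 1 CPM or more are named, plus Serpinh1, P4hb, P4ha1, P4ha2, Plod1, Plod2, Lox, Bmp1, Mmp2, Mmp14 and Timp1. Cell type markers covered fibroblast, epithelium, endothelium, cartilage and macrophage. Promoter windows are RefSeq's (GRCm38.p6). Alternatives were other scaling factors and filters, DESeq2 1.42.0, limma-voom (limma 3.58.1), a replicate block, a gene length offset (lowess span 0.3), protein-coding genes alone and leaving out each library. Figures used matplotlib 3.10.9.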

Additional observations from a re-analysis of the deposited data

How the results depend on the processing

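The count of 21 collagen genes called higher and 0 lower stayed within 20 to 23 higher and 0 lower under median-ratio and upper-quartile factors, both filters, DESeq2, limma-voom, the replicate block (20 higher), the gene length offset and protein-coding genes alone, and ran from 17 to 20 higher when 1 library was left out. By library size alone 10 were higher and 2 lower, with 2276 of all genes higher (22.3% of calls, against 46.3% with TMM) while the median of all genes moved by −1.04. With ribosomal protein genes held equal 1 collagen gene was higher and 17 lower, and the median of all genes moved by −2.39. Of all genes 240 were then higher and 10954 lower (2.14% of calls higher). That scale is set by genes that took a larger share of counts after treatment. The TMM counts depend on their scale as well, since TMM assumes that most genes keep their share. RNA per cell was not measured, so the data do not choose between these scales. Over all genes the 4604 higher and 5337 lower ran from 4125 to 4564 and from 4928 to 5737 when 1 library was left out. The distance of the collagen median from that of all genes, 1.48, was 2.2 with the gene length offset, 2.16 with that offset and the replicate block, 1.65 with protein-coding genes alone, and 1.44 to 1.62 when 1 library was left out, highest without treated replicate 1.

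Log2 changes of single genes that reversed with ribosomal protein genes held equal were Col1a2 -0.66, Col1a1 -0.8, Col3a1 -0.73, Col4a1 -1.05, Col6a1 -0.71, Col18a1 -0.59, Col5a3 -1.16, Col4a2 -1.09, Col5a1 -1.54, Col6a3 -1.88, Col5a2 -1.08, Col6a2 -0.72, Col16a1 -0.55, Col4a5 -0.51, Col7a1 -0.43, Col11a2 -1.03, Col17a1 -1.48, Col20a1 -1.37, Col8a2 -1.21, Col15a1 -0.84, Col9a3 -1.22, P4ha1 -0.91, P4ha2 -1.0, P4hb -0.47, Plod1 -0.37, Plod2 -1.47, P3h4 -0.15, Crtap -0.1, Ppib -0.12, Serpinh1 -0.62, Sec13 -0.9, Sar1a -1.6, Sar1b -1.74, Bmp1 -0.33, Loxl2 -0.62, Itga10 -0.16, Itgb1 -1.44, Mrc2 -0.51, Mmp2 -1.32, Mmp14 -0.74, Timp1 -1.4, Timp2 -0.05, Bgn -0.28 and Fmod -0.06. By library size alone they were Col5a1 -0.21, Col6a3 -0.54, Col17a1 -0.14, Col20a1 -0.06, Plod2 -0.13, Sar1a -0.23, Sar1b -0.37, Itgb1 -0.1 and Timp1 -0.03. With the gene length offset they were Col8a1 0.95, Sar1b -0.34, Ddr2 0.29, Timp1 -0.32 and Fbn1 0.82, and with the offset and the replicate block Col8a1 0.97, Sar1b -0.33, Ddr2 0.3, Timp1 -0.29 and Fbn1 0.84. Col8a1, not called with TMM, was also positive at 0.08 with median-ratio factors and with DESeq2, 0.02 with at least 1 CPM in 3 libraries, 0.11 with protein-coding genes alone and 0.13 with upper-quartile factors, and between −0.29 and 0.08 when 1 library was left out. Moves under another scale are a nearly equal shift of all genes. The all-gene median moved by −2.39 with ribosomal protein genes held equal and by −1.04 by library size alone. The cause of the other moves was not tested.

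The replicate block, under which numbers pair libraries that share only a number, lost Col15a1 (adjusted p = 0.0787) and Col9a3 (adjusted p = 0.0868) and gained Col20a1 (adjusted p = 0.0367). The Col3a1/Col1a1 ratio difference ran from −0.08 to 0.29, Col4a1/Col4a2 from −0.01 to 0.07 and Col6a1/Col6a2 from −0.09 to 0.06 when 1 library was left out; those of Col6a3/Col6a1 (−1.24 to −1.1), Col5a1/Col5a2 (−0.54 to −0.38) and Col1a1/Col1a2 (−0.25 to −0.05) kept their sign, as did all 6 with a pseudocount of 5. The deposited FPKM gives the same differences by construction. The collagen share difference ran from 0.225 to 0.448 percentage points when 1 library was left out and was 0.409 of protein-coding counts. With library size as the scale, 10 named genes kept their direction and lost their calls, 8 of them collagen genes. Col15a1 and Col9a3 had few counts, and the part of depth in their lost calls was not tested.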
